A study of Homo sapiens with 12 samples.

Results

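The HOXB genes are the homeobox genes of the HOXB cluster on chromosome 17. Their 10 members, HOXB1 to HOXB9 and HOXB13, were taken by symbol from a table of read counts for 56638 genes, and all 10 passed the filter on low counts that left 19130 genes. The cells were NT2/D1, which are human embryonal carcinoma cells that differentiate when given all-trans retinoic acid (ATRA). The 4 groups were PRMT6 knockout cells given 1 µM ATRA for 3 days, untreated PRMT6 knockout cells, CRISPR/Cas9 control cells given the same ATRA, and untreated CRISPR/Cas9 control cells, with 3 libraries in each. The knockout libraries all carry the label KO-2, so 1 knockout line stands for the genotype, and the labels do not say how the control cells were made beyond naming CRISPR/Cas9. The labels do not tell whether a group's libraries are separate cultures, and p-values here describe the spread among these libraries, which may be technical.

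HOX genes encode homeodomain transcription factors that give cells their position along the head-to-tail axis. Within a cluster the genes at the 3′ end, such as HOXB1, act towards the head and are switched on first, and those at the 5′ end, such as HOXB9, act further towards the tail and later. Retinoic acid activates the cluster through nuclear receptors of the RAR and RXR families bound to elements near the genes, and NT2/D1 cells are a classical system for that activation. PRMT6 is an enzyme that places methyl groups on arginines, among them an arginine of the histone H3 tail whose methylation opposes trimethylation of the neighbouring lysine, a mark of active promoters.

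HOXB1 is the member for which a promoter sequence was at hand, and it is shown because retinoic acid and the HOX proteins themselves are known to act on this gene. In the mouse, Hoxb1 sustains its own expression through repeated sites near its start that HOX and PBX proteins bind together. The window runs from 250 bases before to 50 bases after the RefSeq start site, chr17:48530962-48531261 on the minus strand of GRCh38.p14, and is written 5′ to 3′ along the gene. Capitals mark the core GATGGATG of those repeats at 179 and 124 bases before the start, the POU-factor octamer variant ATGCTAAT between them, and the reverse complement of the CCAAT box.
HOXB1 promoter: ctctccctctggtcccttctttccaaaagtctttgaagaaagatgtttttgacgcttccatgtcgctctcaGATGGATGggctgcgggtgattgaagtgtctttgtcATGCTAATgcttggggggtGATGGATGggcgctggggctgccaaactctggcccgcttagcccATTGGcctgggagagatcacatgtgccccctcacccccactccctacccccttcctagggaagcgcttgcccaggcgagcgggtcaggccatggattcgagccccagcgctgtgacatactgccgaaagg
On either strand, GATGGATG occurred in 0.718% of 35116 RefSeq promoter windows of this length, ATGCTAAT in 0.649% and CCAAT in 34.6%. The nuclear receptor hexamer AGGTCA, found in 13.8% of the windows, and the TATA box TATAAA, found in 11.5%, were not among the letters of this window. The window held 11 CpG dinucleotides and 58.0% G and C, against medians of 14 and 58.7% over all windows. A match of letters is a description of the sequence and no measure of binding.

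Each library held 25.5 to 60.4 M counts. PRMT6 was at most 0.0587 CPM (counts scaled to library size by edgeR) in every knockout library, against 1.94 to 29.9 CPM in the control libraries. The library labelled control ATRA 2 did not show retinoid target levels like those of its group: CYP26A1, a retinoic acid-degrading enzyme and direct target, stood at 256, 0.052 and 12.4 CPM in control ATRA 1, 2 and 3. RARB, a retinoic acid receptor that is itself a target, stood at 18.8, 1.61 and 5.21 CPM in the same libraries. On these targets that library goes against its label. Its 10 embryonal carcinoma markers summed within the range of control ATRA 1 and 3 (3710 to 5040 CPM), below the untreated control (5350 to 8070 CPM). Its endoderm markers (1.98 CPM) and fibroblast markers (270 CPM) lay below control ATRA 1 and 3 (20.1 to 30.1 and 1080 to 1520 CPM). Whether the label is right cannot be told from these files. Control ATRA 2 was singled out by retinoid targets, which the HOXB genes are too. What is given without it thus describes the remaining libraries and is no independent test of ATRA. Comparisons that use it are given with all libraries and, where named, without it. Knockout ATRA 1 and 3 were nearly identical (a chi-square of 1.91 per gene), as were untreated knockout 1 and 2 (9.01), while other pairs of libraries from 1 group had 78.1 to 416. Knockout ATRA 2 and untreated knockout 3 stood apart from those pairs, with the collagen gene COL3A1 at 1670 and 1320 CPM, against 10100 to 10900 CPM in the other 4 knockout libraries.

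**Figure D1:**
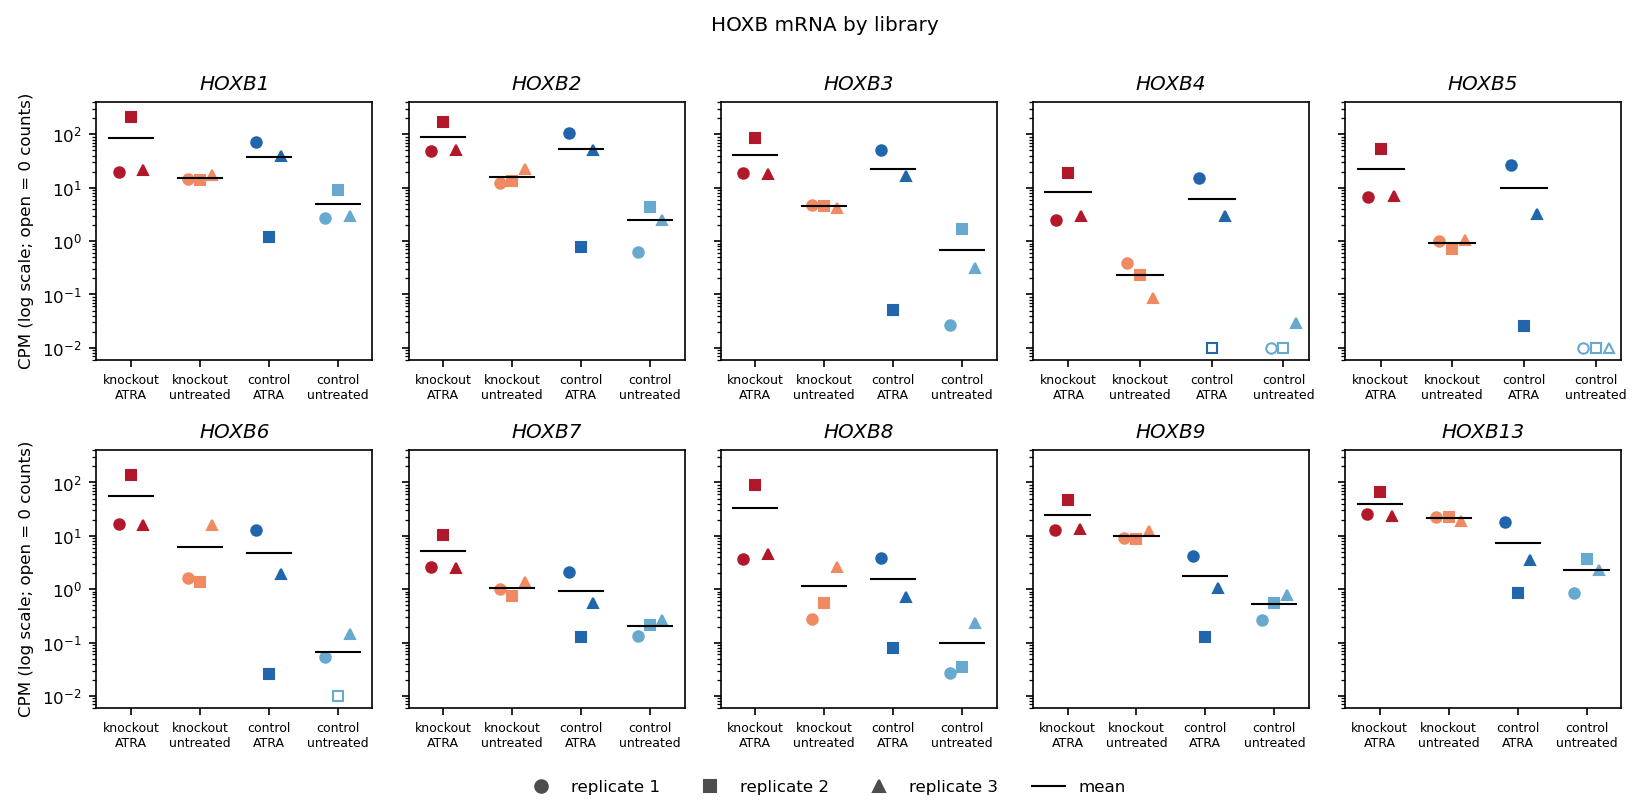
CPM of each HOXB gene on a log axis in the 12 libraries, in 4 groups of 3, with the replicate number given by the symbol, the group mean by a line, and libraries with 0 counts as open symbols at the bottom. The untreated knockout libraries lie above the untreated control libraries for all 10 genes, and control ATRA 2 lies far below control ATRA 1 and 3.

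In untreated cells, every HOXB gene had more mRNA in the knockout than in the control, and 4 of the 10 rose by the test: HOXB5, HOXB6, HOXB9 and HOXB13. A gene was called when the adjusted p of edgeR's quasi-likelihood test (Benjamini-Hochberg over all genes tested) was under 0.05. Over all 19130 genes, 34.9% were called in this comparison, 13% as higher and 21.9% as lower in the knockout. The knockout libraries did not overlap the control libraries for any of the 10 members, all higher, against 20.9% of all genes. The median HOXB log2 fold change was 3.28, against -0.11 over all genes. HOXB4 and HOXB5, which had 0 to 2 control counts, lie above that median, which does not depend on the size of their fitted values. These are bulk values, in which more cells with HOXB mRNA and more HOXB mRNA per cell cannot be told apart.

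At the 5′ end of the cluster lie HOXB9, a gene of thoracic patterning, and HOXB13, which stands apart from the rest and is known for its role in the prostate. HOXB9 stood at 9.24, 8.61 and 12.3 CPM in the untreated knockout, against 0.267, 0.546 and 0.779 CPM in the untreated control. The knockout libraries were alike, and each lay far above the highest control library. HOXB9 averaged 10.1 ± 1.99 CPM in the untreated knockout and 0.53 ± 0.256 CPM in the untreated control (SD, n = 3 each). On the log2 scale the fitted difference was 4.21 ± 0.93 (SE; edgeR adjusted p = 0.00727). HOXB9 was called in each of the 23 other settings tried, with log2 fold changes of 3.71 to 4.59 and adjusted p of 2.45e-06 to 0.0452. HOXB13 stood at 22.1, 22.5 and 19.3 CPM in the untreated knockout, against 0.854, 3.66 and 2.29 CPM in the untreated control. The groups were far apart, at 21.3 ± 1.76 CPM in the knockout and 2.27 ± 1.4 CPM in the control (SD, n = 3 each). Relative to the mean, the spread was larger in the control. HOXB13 had a fitted log2 difference of 3.22 ± 0.88 (SE; edgeR adjusted p = 0.0163). Without untreated control 3 its adjusted p was 0.0602, and with the near-identical libraries summed it was 0.0632.

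The middle of the cluster, HOXB4 to HOXB8, was low in untreated control cells, at 0 to 18 counts per library. HOXB5, a gene of the vagal neural crest and lung, had 29, 22 and 24 counts in the untreated knockout libraries, against 0 counts in each untreated control library. With a floor of 3 counts for the whole control group, HOXB5 mRNA in the knockout was at least 49.7-fold higher (edgeR adjusted p = 0.044). The levels were low all the same, at 1.02, 0.72 and 1.03 CPM in the untreated knockout. HOXB6, which neighbours HOXB5, stood at 1.62, 1.37 and 15.8 CPM in the untreated knockout, against 0.0534, 0 and 0.144 CPM in the untreated control. Untreated knockout 3 was 10.6 times the mean of the other 2 knockout libraries, and all 3 lay above the control. The HOXB6 log2 fold change was 6.39 ± 1.86 (SE; edgeR adjusted p = 0.0208), a ratio of means of 95.1 that was 22.7 without untreated knockout 3, and the adjusted p without that library was 0.0859. Both calls also rested on the controls: without untreated control 2 the adjusted p was 0.0969 for HOXB5 and 0.0645 for HOXB6, and without untreated control 3 it was 0.116 and 0.0595. The HOXB5 call was further lost without any 1 of the other 4 untreated libraries. Both were also lost with limma-voom (adjusted p of 0.114 for HOXB5 and 0.104 for HOXB6), with the near-identical libraries summed (0.0925 and 0.054) and with untreated knockout 3 and knockout ATRA 2 both left out (0.0687 and 0.0694).

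Among the members that did not pass, HOXB7, a gene also studied as a growth-promoting factor in tumours, came closest. It stood at 1.02, 0.753 and 1.37 CPM in the untreated knockout, against 0.133, 0.211 and 0.26 CPM in the untreated control (log2 fold change 2.32 ± 0.86 SE, edgeR adjusted p = 0.0521). HOXB8, whose mouse counterpart acts in the spinal cord and in myeloid cells, stood at 0.281, 0.556 and 2.57 CPM in the untreated knockout, against 0.0267, 0.0352 and 0.231 CPM in the untreated control. Its groups were separated by a narrow gap, and the adjusted p was 0.118. HOXB4, known for expanding blood stem cells when overexpressed, had 20 counts over the untreated knockout, against 2 over the untreated control, a ratio of 19.9 with a 95% exact counting interval of 4.82 to 175 that covers counting error only (edgeR adjusted p = 0.165).

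Of the 3′ members HOXB1, HOXB2 and HOXB3, which pattern the hindbrain, HOXB1 and HOXB2 already had mRNA in each untreated control library. HOXB3 had 1, 95 and 22 counts in untreated control 1, 2 and 3, a range that took in those of HOXB7 (5, 12 and 18). HOXB1 stood at 14.5, 13.7 and 17.5 CPM in the untreated knockout, against 2.67, 9.07 and 2.96 CPM in the untreated control (log2 fold change 1.63 ± 1.11 SE, edgeR adjusted p = 0.264). Untreated control 2 came closest to the knockout levels. HOXB2 stood at 12.5, 13.2 and 22.3 CPM in the untreated knockout, against 0.614, 4.33 and 2.52 CPM in the untreated control (2.67 ± 1.12, adjusted p = 0.0801). HOXB3 stood at 4.71, 4.58 and 4.24 CPM in the untreated knockout, against 0.0267, 1.67 and 0.317 CPM in the untreated control (2.71 ± 1.41, adjusted p = 0.147). For HOXB3 the knockout libraries were almost equal while the control libraries covered a wide range. Without control ATRA 2, which enters this comparison through the shared estimate of spread, 7 of the 10 members were called, HOXB2, HOXB3 and HOXB7 in addition, and all 10 log2 fold changes stayed within 0.01 of their values. In that fit 40% of all genes were called, 7891 against 6676.

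Other properties of the libraries moved with genotype, and their part in the HOXB differences was not tested except where a value is given. The 10 fibroblast markers checked summed to 2250 to 13900 CPM in the untreated knockout, against 449 to 543 CPM in the untreated control, with 6 of 10 called higher, 1 called lower and none at 0 in either group. In untreated knockout 3, the library at 2250 CPM, the levels relative to the mean of the other 2 knockout libraries were 10.6 times for HOXB6, 6.13 for HOXB8, 0.278 for HOXB4, 1.38 for HOXB9 and 0.864 for HOXB13, and 0.912 to 1.74 for the other 5 members. The 6 endoderm markers summed to 47.4 to 56.4 CPM in the untreated knockout, against 0.564 to 2.6 CPM in the untreated control, with 3 of 4 tested called higher. The 10 embryonal carcinoma markers, POU5F1 and NANOG among them, summed to 5340 to 8640 CPM in the untreated knockout, against 5350 to 8070 CPM in the untreated control, with 1 of 10 called lower and none higher. Of 7 tested neuron markers 1 was called higher and 2 lower, and of 2 tested blood markers neither was called. Beside these marker counts, 13% of all genes were called higher and 21.9% lower in this comparison. Expression relative to the 12-library mean was rank-correlated with the GC content of genes (genes being no independent replicates), with coefficients of 0.118 to 0.477 in the knockout libraries, against -0.377 to 0.0914 in the control libraries. With that trend removed, HOXB6, HOXB9 and HOXB13 were still called, at log2 fold changes of 5.9, 3.71 and 2.76, and HOXB5 was not (adjusted p = 0.0892). That fit called 17.5% of all genes.

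**Figure D2:**
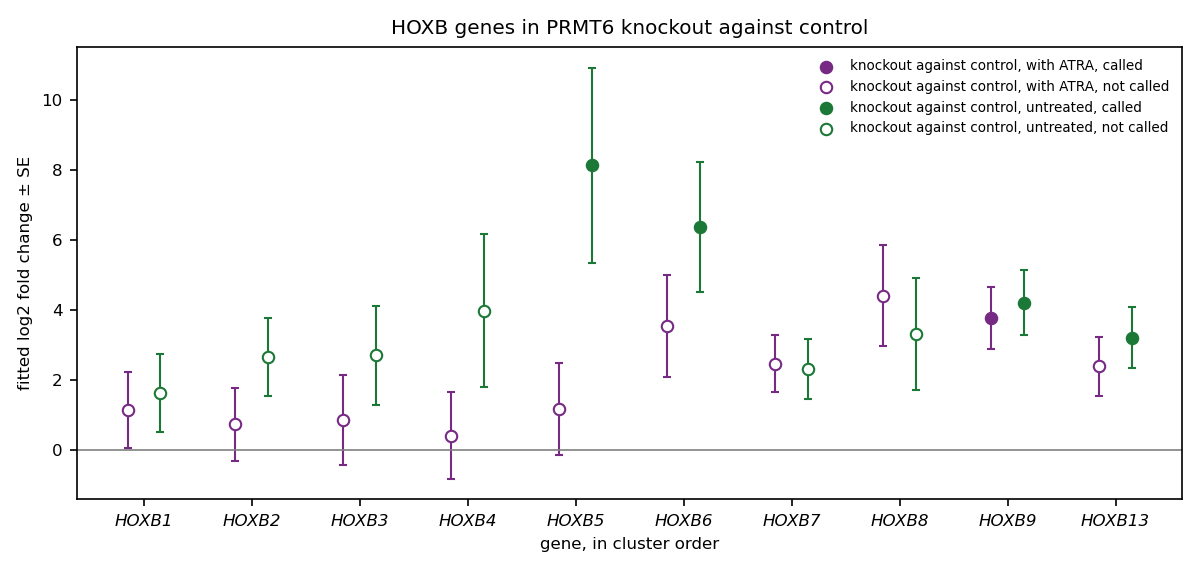
Fitted log2 fold change of each HOXB gene, knockout over control, with its standard error, in ATRA-treated cells (purple, left of each pair) and in untreated cells (green); filled points passed the adjusted p of 0.05. The 4 filled green points are HOXB5, HOXB6, HOXB9 and HOXB13 and the 1 filled purple point is HOXB9; the fitted HOXB5 value without ATRA rests on 0 control counts.

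With ATRA, 1 of the 10 HOXB genes rose in the knockout against the control, HOXB9. Over all genes 7.51% were called in this comparison and 3.27% were called higher. HOXB9 stood at 12.8, 46.4 and 13.7 CPM in knockout cells with ATRA, against 4.18, 0.13 and 1.04 CPM in the control with ATRA. Knockout ATRA 2 was the highest library, and the lowest knockout library still lay clear of control ATRA 1. The log2 fold change was 3.78 ± 0.9 (SE; edgeR adjusted p = 0.0285), and without control ATRA 2 it was 3.22 (adjusted p = 0.0391), in a fit that called 3.21% of all genes. The call was lost without knockout ATRA 1, 2 or 3 (adjusted p of 0.0629, 0.0765 and 0.0664) and without control ATRA 3 (0.0534). It held in 14 of the 23 other settings.

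The 4 members whose libraries did not overlap between the genotypes with ATRA were all from HOXB6 onwards: HOXB6, HOXB7, HOXB9 and HOXB13, each higher, against 16.7% of all genes, and they were 4 without control ATRA 2 as well, against 21.5%. HOXB13 stood at 25.5, 66.9 and 23.7 CPM in knockout cells with ATRA, against 17.8, 0.832 and 3.47 CPM in the control with ATRA (log2 fold change 2.4 ± 0.85 SE, edgeR adjusted p = 0.0943). Its lowest knockout library lay a little above control ATRA 1. HOXB6 stood at 16.9, 136 and 15.8 CPM in knockout cells with ATRA, against 12.6, 0.026 and 1.92 CPM in the control with ATRA (3.54 ± 1.46, adjusted p = 0.138). HOXB7 stood at 2.61, 10.4 and 2.48 CPM in knockout cells with ATRA, against 2.12, 0.13 and 0.544 CPM in the control with ATRA (2.47 ± 0.81, adjusted p = 0.0758). HOXB8 overlapped, at 3.71, 89.6 and 4.63 CPM in knockout cells with ATRA, against 3.85, 0.078 and 0.7 CPM in the control with ATRA (4.42 ± 1.45, adjusted p = 0.0773). Without control ATRA 2 the log2 fold changes were 2.95 for HOXB6 (adjusted p = 0.266), 1.95 for HOXB7 (0.174), 3.85 for HOXB8 (0.193) and 1.86 for HOXB13 (0.185). The large fold of HOXB8 rested mainly on knockout ATRA 2, which was 21.5 times the mean of knockout ATRA 1 and 3. Without knockout ATRA 2 the HOXB8 log2 fold change was 1.44 (edgeR adjusted p = 0.476).

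For HOXB1 to HOXB5 the genotypes overlapped with ATRA, and the direction depended on a single library. HOXB1 stood at 19.7, 212 and 21.2 CPM in knockout cells with ATRA, against 72.8, 1.17 and 39.2 CPM in the control with ATRA. HOXB2 stood at 49.4, 167 and 50.8 CPM in knockout cells with ATRA, against 107, 0.78 and 51.9 CPM in the control with ATRA. In both genes knockout ATRA 1 and 3 lay below control ATRA 1 and 3, and knockout ATRA 2 lay above all other libraries. HOXB3 stood at 18.7, 85.4 and 17.7 CPM in knockout cells with ATRA, against 50.5, 0.052 and 16.5 CPM in the control with ATRA. HOXB4 stood at 2.46, 19.1 and 3 CPM in knockout cells with ATRA, against 15.5, 0 and 2.93 CPM in the control with ATRA. HOXB5 stood at 6.75, 52.7 and 7.08 CPM in knockout cells with ATRA, against 26.1, 0.026 and 3.27 CPM in the control with ATRA. In these 3 genes control ATRA 1 lay above knockout ATRA 1 and 3 and below knockout ATRA 2, so the genotypes overlapped.

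The log2 fold changes of knockout over control with ATRA were 1.16 for HOXB1, 0.74 for HOXB2, 0.86 for HOXB3, 0.42 for HOXB4 and 1.18 for HOXB5, with edgeR adjusted p of 0.513 to 0.857. Without knockout ATRA 2 they were -0.88, -0.09, -0.3, -1.17 and -0.5 in the same order, and without control ATRA 2 they were 0.59, 0.16, 0.28, -0.17 and 0.59. With both of these and untreated knockout 3 left out, they were -1.45, -0.66, -0.88, -1.75 and -1.09, while HOXB9 kept a log2 fold change of 2.35 (adjusted p = 0.0752). None of these 5 genes was called in any of the 23 other settings, so no direction is given for them with ATRA. The median HOXB log2 fold change with ATRA was 1.79, against -0.06 over all genes, and without control ATRA 2 it was 1.23, against -0.03. The fibroblast markers summed to 2260 to 12400 CPM in knockout cells with ATRA, against 270 to 1520 CPM in the control with ATRA (3 of 10 called higher), or 1080 to 1520 CPM without control ATRA 2 (1 called higher and 1 lower). The endoderm markers summed to 42.8 to 80 CPM in the knockout with ATRA, against 1.98 to 30.1 CPM in the control with ATRA, where SOX17 was at 0 (1 of 4 tested called higher), or 20.1 to 30.1 CPM without control ATRA 2 (also 1). The embryonal carcinoma markers summed to 2500 to 3670 CPM in the knockout with ATRA, against 3710 to 5040 CPM in the control with ATRA, with none of 10 called, and 2 called higher without control ATRA 2. Beside these marker counts, 7.51% of all genes were called with all libraries, 3.27% as higher. Without control ATRA 2 these shares were 3.21% and 1.43%. The part of the marker differences in the HOXB values was not tested.

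The response to ATRA in control cells was carried by control ATRA 1 and 3. With all libraries, 0 of the 10 HOXB genes were called by edgeR and 0 by limma-voom, against 4 by DESeq2 (HOXB2, HOXB3, HOXB4 and HOXB5) and 8 at an unadjusted edgeR p under 0.05. DESeq2 gave an adjusted p for 7 members in each comparison, and none for HOXB6, HOXB8 and HOXB13. Of all genes 20.7% had an unadjusted edgeR p under 0.05. Over all genes edgeR called 0.115%, and 0.0993% as higher, while DESeq2 called 8.5%, and 4.56% as higher. The ATRA libraries lay wholly above the untreated ones for 1 member, HOXB5, against 7.39% of all genes. Without control ATRA 2, 7 of the 10 passed edgeR's test as higher, HOXB1 to HOXB7, in a fit that called 12.3% of all genes and 5.4% as higher. Without it 9 of the 10 lay wholly above the untreated controls, against 19.7% of all genes. Control ATRA 2 lay below all 3 untreated control libraries for 4 members, within their range for 5 and above them for 1. The embryonal carcinoma markers summed to 3710 to 5040 CPM in the control with ATRA, against 5350 to 8070 CPM in the untreated control. In the knockout they summed to 2500 to 3670 CPM with ATRA, against 5340 to 8640 CPM untreated. With all libraries none of the 10 was called in either genotype. Without control ATRA 2 in the fit, 6 were called lower in the control and 2 in the knockout. That fit called 12.3% of all genes in the control and 0.918% in the knockout, in either direction.

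The fold changes in control cells were largest for HOXB5, HOXB4 and HOXB6, the members with the lowest untreated control levels per length of gene. HOXB5 had 976 counts over the control libraries with ATRA, against 0 over the untreated ones, which by the same floor is at least 486-fold higher, and at least 748-fold higher without control ATRA 2. HOXB4 had 617 counts with ATRA, against 2 untreated, a ratio of 461 (95% exact counting interval 127 to 3810), and of 710 (196 to 5880) without control ATRA 2. Without that library, the log2 fold changes were 3.52 for HOXB1 (edgeR adjusted p = 0.0314), 4.98 for HOXB2 (0.00301), 5.6 for HOXB3 (0.0089), 6.61 for HOXB6 (0.0234) and 2.67 for HOXB7 (0.0383). HOXB8, HOXB9 and HOXB13 had values of 4.34, 2.26 and 2.22, with adjusted p of 0.0813, 0.0506 and 0.0532. With all 3 libraries the values for HOXB1, HOXB2, HOXB3 and HOXB6 were 2.94, 4.4, 5.02 and 6.03. The median over the 10 genes with all libraries was 4.09, against -0.04 over all genes, and HOXB4 and HOXB5 lie above it. The median was 4.66, against -0.07 over all genes, without control ATRA 2.

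In the knockout, 9 of the 10 HOXB genes had ATRA libraries wholly above the untreated ones, all but HOXB6, against 17.2% of all genes. By the test, 0 of the 10 were called with edgeR, 0 with limma-voom and 0 of the 7 with a value in DESeq2, while 8 had an unadjusted edgeR p under 0.05, against 11.7% of all genes. Over all genes edgeR called 0.0314%, and 0.0261% as higher, while DESeq2 called 3.19%. The log2 fold changes of ATRA over untreated were 5.08 ± 1.55 (SE) for HOXB4, 4.87 ± 1.5 for HOXB8 and 4.59 ± 1.55 for HOXB5, and the smallest adjusted p was 0.203, for HOXB4. HOXB1 and HOXB2 each had 2.47, HOXB3 3.17, HOXB6 3.18 and HOXB7 2.3. The values were smallest at the 5′ end, with 1.27 ± 0.81 for HOXB9 and 0.86 ± 0.81 for HOXB13. The median over the 10 genes was 2.82, against 0.02 over all genes.

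Much of the spread in the knockout lay between knockout ATRA 2 and the near-identical pair. Knockout ATRA 2 was 2.72 times the mean of knockout ATRA 1 and 3 for HOXB13, 10.4 times for HOXB1 and 21.5 times for HOXB8, and above them for all 10 members. Without it, the log2 fold change was 0.43 for HOXB1, 1.65 for HOXB2, 2.01 for HOXB3, 3.51 for HOXB4 and 2.91 for HOXB5. CYP26A1 was also highest in knockout ATRA 2, with 12.7, 1020 and 11 CPM in knockout ATRA 1, 2 and 3. RARB, also a retinoid target, was nearly level in the same libraries, at 19.6, 20.7 and 17.5 CPM. MEIS1 stood at 41.6, 35.1 and 42.3 CPM. The part of these genes was not tested. When the 2 knockout groups were fitted alone, HOXB2, HOXB3, HOXB4 and HOXB5 were called, in a fit that called 1336 genes (7.6%), against 6 with all groups. Without control ATRA 2 in the fit of all groups HOXB4 was called (adjusted p = 0.0448), beside 0.918% of all genes.

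**Figure D3:**
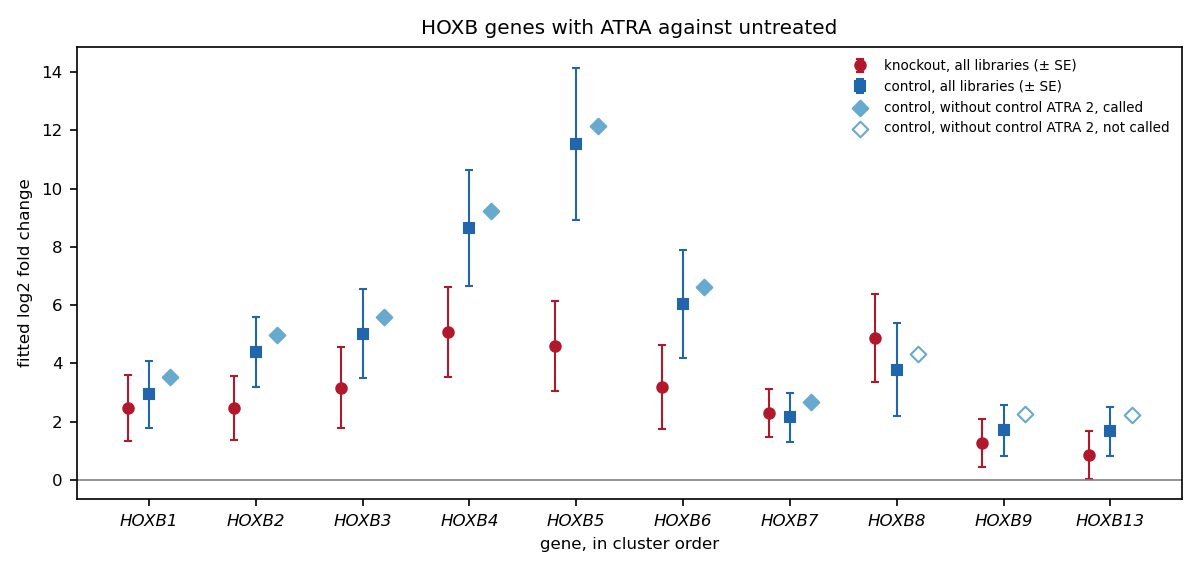
Fitted log2 fold change of each HOXB gene, ATRA over untreated, in the knockout (red circles) and the control (dark blue squares) with standard errors, and in the control without control ATRA 2 (light blue diamonds, filled where the adjusted p is under 0.05). Control values peak at HOXB4 and HOXB5, whose untreated control counts were 2 and 0, and 7 diamonds are filled.

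Whether ATRA acted differently in the 2 genotypes was tested as an interaction. None of the HOXB genes passed: 0 of 10 by edgeR and by limma-voom, 0 of the 7 with a value in DESeq2, and 0 of 10 at an unadjusted edgeR p under 0.05. Of all genes 0% were called by edgeR and 0.0763% by DESeq2, and 9.76% had an unadjusted edgeR p under 0.05. The largest difference was that of HOXB5, -6.97 ± 3.34 (log2, SE; edgeR adjusted p = 0.526), which rests on 0 counts in the untreated control. HOXB4 had -3.58 ± 2.52, with 2 counts in the untreated control, HOXB6 -2.86 ± 2.22, HOXB2 -1.93 ± 1.5 and HOXB3 -1.85 ± 1.86, with adjusted p of 0.626 to 0.729. For HOXB1, HOXB7, HOXB8, HOXB9 and HOXB13 the interaction lay between -0.83 and 1.08 on the log2 scale, with standard errors of 1.15 to 2.15. The median over the 10 genes was -1.34, against 0.04 over all genes. Without control ATRA 2 none was called either, with adjusted p of 0.211 to 0.907. Differences between the genotypes in the ATRA response were thus not detectable here, which does not show that the responses were alike.

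Per length of gene (RPKM, CPM divided by gene length in kilobases, from the deposited gene lengths), the make-up of HOXB mRNA differed between libraries. HOXB9 and HOXB13 together made up 24.9%, 12.3% and 24.1% of the summed HOXB RPKM in the knockout with ATRA and 45.1%, 45.8% and 32.9% in the untreated knockout, against 6.89%, 25.4% and 3.64% in the control with ATRA and 20.1%, 19.2% and 29.3% in the untreated control. Their share was thus higher in each untreated knockout library than in each untreated control library. The summed RPKM was 48.4, 295 and 49.5 in the knockout with ATRA and 21.7, 21.2 and 30.8 in the untreated knockout, against 97, 1.13 and 38 in the control with ATRA and 1.72, 6.56 and 3.24 in the untreated control. In untreated knockout 1 and 2 the gene with the highest RPKM was HOXB13, while in every control library it was HOXB1 or HOXB2. By mean RPKM the order in the untreated knockout was led by HOXB1 (6.16 ± 0.813, SD), HOXB13 (6.15 ± 0.509), HOXB2 (4.63 ± 1.58) and HOXB9 (3.72 ± 0.736), and in the untreated control by HOXB1 (1.98 ± 1.46), HOXB2 (0.72 ± 0.537) and HOXB13 (0.655 ± 0.405). HOXB4 was last in the untreated knockout at 0.0622 ± 0.0401 RPKM, and HOXB5 was last in the untreated control at 0. Of the 9 pairs of neighbours in the order, 0 had separate ranges in the knockout with ATRA, 1 in the untreated knockout (HOXB5 above HOXB4) and 0 in either control group.

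**Figure D4:**
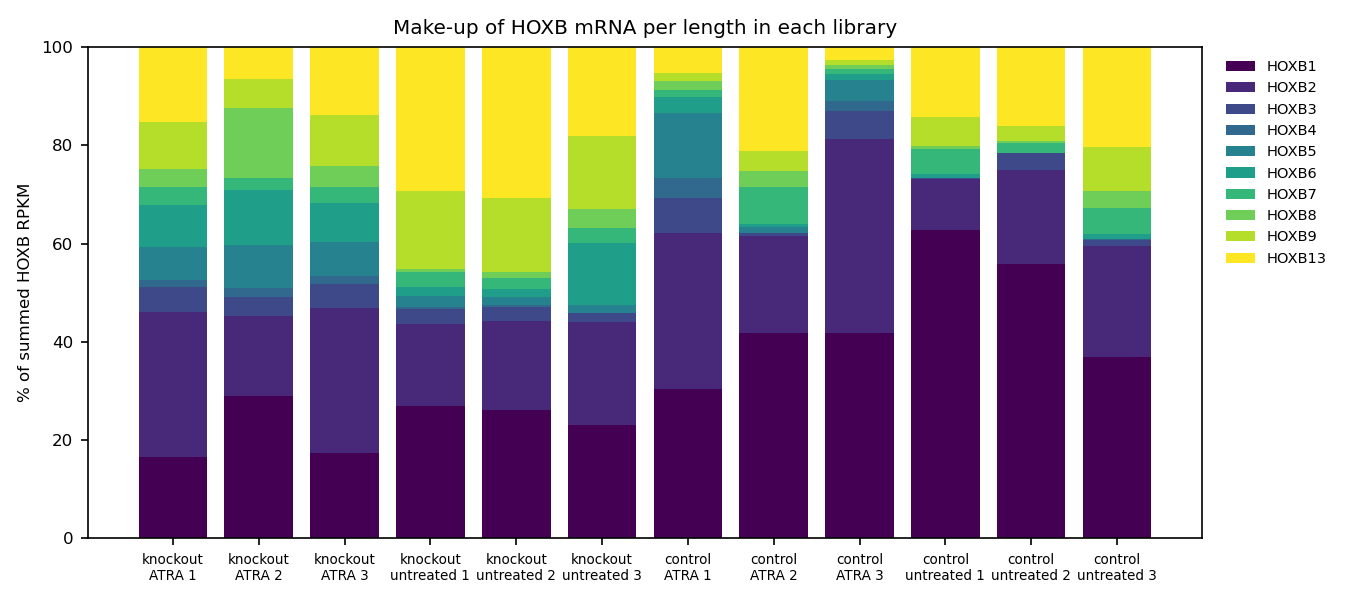
Share of the summed HOXB RPKM taken by each gene in each of the 12 libraries, as stacked bars that add to 100%, with HOXB1 at the bottom and HOXB13 at the top. HOXB9 and HOXB13 fill 32.9% to 45.8% of the bar in untreated knockout libraries, against 19.2% to 29.3% in untreated control libraries.

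Of the genes inside or beside the cluster, 10 passed the filter, and 2 of them rose in the untreated knockout, against 13% of all genes. PRAC1 and PRAC2 are small genes in the gap between HOXB13 and HOXB9, and PRAC1 is known for expression in the prostate and distal colon. PRAC1 stood at 13.8, 10.3 and 7.19 CPM in the untreated knockout, against 0.133, 0.475 and 0.447 CPM in the untreated control (log2 fold change 4.84 ± 0.65 SE, edgeR adjusted p = 0.00182). With ATRA it stood at 12.4, 3.58 and 14.1 CPM in the knockout, against 0.246, 0.104 and 0.0519 CPM in the control (6.23 ± 0.73, adjusted p = 0.00119). Unlike the HOXB genes, PRAC1 and PRAC2 both had their lowest knockout level in knockout ATRA 2. For PRAC2 that was 15.6 CPM, against 22 to 33.6 CPM in the other knockout libraries. PRAC2 had log2 fold changes of 3.51 ± 0.62 untreated (adjusted p = 0.00352) and 2.05 ± 0.58 with ATRA (adjusted p = 0.0505). With ATRA and without control ATRA 2, PRAC1 had 6.09 (adjusted p = 0.00561) and PRAC2 had 1.76 (0.161).

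The antisense RNA HOXB-AS3, which overlaps the HOXB5 to HOXB7 stretch, stood at 1.69, 1.64 and 0.771 CPM in the untreated knockout, against 0, 0.0176 and 0.144 CPM in the untreated control (log2 fold change 4.38 ± 1.62 SE, edgeR adjusted p = 0.0522). HOXB-AS1, near HOXB3, had a log2 fold change of 0.31 ± 0.99 in the same comparison (adjusted p = 0.821). Whether reads were counted by strand is not given in the sources used here, and counts may be shared between HOXB genes and these antisense RNAs. With all libraries, the flanking genes SKAP1, TTLL6, CALCOCO2, SNX11, CBX1 and NFE2L1 were not called in either genotype comparison. For these 6 flanking genes, in the order named, the untreated log2 fold changes in that fit were 3.69, -1.59, -0.94, 0.61, -0.55 and 0.66. Their edgeR adjusted p was 0.0504 to 0.0888. Without control ATRA 2, 6 of the 10 locus genes were called higher and 1 lower in the untreated knockout. There 40% of all genes were called, 15.6% as higher, and calls at the locus were not confined to the HOXB genes, PRAC1 and PRAC2.

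In the other HOX clusters, 5 paralogues of HOXB9 and HOXB13 were also higher in the knockout. HOXC9, a further HOXB9 paralogue, is not among them and no value is given for it. In untreated cells the log2 fold change was 6.67 ± 1.23 for HOXA9 (SE; edgeR adjusted p = 0.0041) and 2 ± 0.35 for HOXD9 (0.00334). The group-13 paralogues had 7.53 ± 0.69 for HOXA13 (0.000249), 1.08 ± 0.28 for HOXC13 (0.0125) and 2.69 ± 0.42 for HOXD13 (0.00286). All 5 were called with ATRA too, at 5.09, 2.17, 7.37, 1.09 and 3.08 in that order. These were 4.49, 1.97, 7.39, 0.99 and 3.17 without control ATRA 2, where HOXC13 was not called (adjusted p = 0.105). Over the clusters, 10 of 11 tested HOXA, 5 of 6 HOXC and 8 of 9 HOXD genes were called higher untreated. Beside them stood 4 of 10 HOXB genes and 13% of all genes. With ATRA the counts were 5, 4 and 5, beside 1 HOXB gene and 3.27% of all genes. Without control ATRA 2 they were 5 of 11 HOXA, 2 of 8 HOXC and 5 of 9 HOXD genes, against 1.43% of all genes. The filter was applied anew in that fit and left 8 HOXC genes.

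HOX proteins bind DNA with partners of the PBX, MEIS and PKNOX families. Of 12 such partner and related genes, 1 rose and 1 fell in the untreated knockout, against 13% and 21.9% of all genes. MEIS1 stood at 25.9, 26 and 6.42 CPM in the untreated knockout, against 3.34, 0.898 and 3.33 CPM in the untreated control (log2 fold change 2.95 ± 0.82 SE, edgeR adjusted p = 0.0174), and GMNN, which encodes geminin, a replication inhibitor that also binds HOX proteins, fell by 1.26 on the log2 scale (adjusted p = 0.00485). With ATRA none of the 12 was called by edgeR in the knockout against the control, with or without control ATRA 2.

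Of 36 tested genes known to act on HOX clusters, 11 rose and 5 fell in the untreated knockout, against 13% and 21.9% of all genes. The retinoid receptors RARA, RARB, RARG and RXRB were among those that rose, with log2 fold changes of 1.44, 3.37, 0.86 and 1.03 (edgeR adjusted p of 0.0406, 0.0192, 0.034 and 0.0121). So were CDX1 and CDX2, homeobox activators of posterior HOX genes, at 5.65 (0.0171) and 2.78 (0.0257), and NR2F2, a nuclear receptor, at 3.43 (0.012). SUZ12 and EED, subunits of the Polycomb repressive complex that methylates histone H3, fell by 1.66 (0.0112) and by 1.21 (0.0134), while its enzyme EZH2 had -0.43 ± 0.24 (0.163). The other 3 that fell were ASH2L, a subunit of H3 lysine methyltransferase complexes, KDM6A, a demethylase that removes the Polycomb mark, and RNF2, a Polycomb ubiquitin ligase. With ATRA 1 of the 36 was called, RXRB, which rose by 1.05 (0.0331) and had 0.87 (0.1) without control ATRA 2. Beside RXRB, SUZ12 and NR2F2, which had the smallest adjusted p of this list, the genes of this paragraph were chosen after their values were seen.

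The 10 HOXB genes varied together over the 12 libraries, which span all 4 groups and share the depths and near-identical pairs described above. Pearson correlations of log2 CPM between members ran from 0.671 (HOXB4 with HOXB9) to 0.992 (HOXB2 with HOXB3), and HOXB9 and HOXB13 had 0.981. Outside the HOX clusters, among 12444 genes of at least 1 CPM on average, the pattern most like that of HOXB1 was shown by COL22A1 (0.965), CYP26A1 (0.963) and LHX1 (0.957). The genes most like HOXB5 were ARSI (0.974), MAG (0.971) and C19orf12 (0.97). For HOXB9 they were PELO (0.974), ANKRD54 (0.972) and TMEM25 (0.967), and for HOXB13 they were SLC25A48 (0.98), BTBD6 (0.971) and SLC25A20 (0.956).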

How the data were processed

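Per the labels' protocols, RNA libraries of NT2/D1 cells were made with a stranded TruSeq kit. Raw counts of each gene in 12 libraries, and its length, stand in the deposited table. Per the submitters' processing notes, bcl2fastq, TopHat2, Subread, featureCounts and DESeq2 were used with the builds hg19 and GRCh37; tool versions, strand use and treatment of multiply matching reads are, in the sources used here, not given. Gene lengths deposited by the authors (unit: other) were used for RPKM only, for comparing levels between genes.

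In edgeR 4.0.16 (R 4.3.3), filterByExpr with a minimum count of 10 left 19130 genes, TMM scaled the libraries, and all 12 entered 1 quasi-likelihood fit with the 4 groups as coefficients and p-values adjusted over all genes tested. The biological coefficient of variation was 0.367, and 3 counts corresponded to 0.0497 to 0.118 CPM of unscaled totals. Standard errors were derived from the fold change and its F statistic. The members and gene lists were chosen with earlier results of these data known. Named genes were the 10 members, tested genes of the locus, and the 3 called cofactors and regulators with the smallest adjusted p per comparison. Also named were paralogues of HOXB9 and HOXB13 other than HOXC9, and the 3 genes most like HOXB1, HOXB5, HOXB9 and HOXB13. Other regulators named were chosen after their values were seen.

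Other settings were RLE scaling, DESeq2 1.42.0, limma-voom (limma 3.58.1), no filter, a filter of over 1 CPM in 3 or more libraries, a replicate block, compared groups only, near-identical libraries summed, GC trend removed (GC content from GENCODE v44, by symbol, for 85.6% of tested genes) and each library left out in turn. Leaving out 2 knockout libraries (untreated 3, ATRA 2), and these with control ATRA 2, was chosen after the data were seen. Replicate numbers do not pair the libraries (correlation of deviations -0.485 to 0.393). On simulated data with known changed genes, edgeR recovered 60% of 4-fold and 98% of 8-fold changes for the untreated genotype comparison. The simulation gave every gene the same spread and had no outlying or near-identical libraries. It thus sets no limit on the change of a HOXB gene that was not called. Untreated, HOXB8 at a fitted 10.1-fold and HOXB4 at 15.9-fold were not called. Promoter sequences came from RefSeq on GRCh38.p14.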

Additional observations from a re-analysis of the deposited data

How the results depend on the processing

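Relative to the values reported, the number of HOXB genes called changed with the setting, and shares of all genes called stand in brackets. For the untreated knockout against control it was 4 (34.9%). It was 2 with limma-voom (33.7%), 9 with no filter (18.2%) and 7 of 8 tested with the compared groups only (30.8%). It was 1 with near-identical libraries summed (5.42%), 2 with 2 knockout libraries left out (22.7%) and 9 with 3 libraries left out (33.8%). Leaving out 1 library at a time it ran from 1 to 7, beside 15.5% to 42.8% of all genes. With ATRA the number was 1 (7.51%), and it was 2 with DESeq2 (15.5%), 2 with limma-voom (5.31%) and 5 with no filter (6.32%). It was 0 with the compared groups only (4.31%), with the replicate block (3.98%) and with near-identical libraries summed (0.359%). It was also 0 with 2 (4.47%) or 3 (4.05%) libraries left out. Leaving out 1 library it ran from 0 to 3, beside 1.11% to 10.9% of all genes. For ATRA against untreated in the control the number was 0 (0.115%). It was 4 with DESeq2 (8.5%), 7 with no filter (3.84%) and 9 with 3 libraries left out (11%). Leaving out 1 library it ran from 0 to 7, beside 0% to 12.4% of all genes. In the knockout it was 0 (0.0314%), and it was 3 with no filter (0.742%) and 4 with the compared groups only (7.6%). Leaving out 1 library it ran from 0 to 1, beside 0% to 0.918% of all genes. For the interaction it was 0 in every setting that gave a value. DESeq2 counts are over 7 members, since it gave no adjusted p for HOXB6, HOXB8 and HOXB13.

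Some log2 fold changes took the opposite sign. For the knockout against control with ATRA, HOXB1, HOXB2, HOXB3, HOXB4 and HOXB5 had -0.88, -0.09, -0.3, -1.17 and -0.5 without knockout ATRA 2 and also with 2 knockout libraries left out, and -1.45, -0.66, -0.88, -1.75 and -1.09 with 3 libraries left out; HOXB4 had -0.17 without control ATRA 2. Leaving out 1 library, these 5 ran from those values up to 2.06, 1.75, 2.29, 2.48 and 3.75, all without control ATRA 1. For ATRA in the control, HOXB13 ran from -0.08 without control ATRA 1 to 2.22 without control ATRA 2. Interactions, none called, turned to 0.35 for HOXB9 with limma-voom; to 0.42, 1.16 and 0.94 for HOXB1, HOXB9 and HOXB13 without control ATRA 1; for HOXB7 to -0.87 without knockout ATRA 2, -0.05 without untreated knockout 2, -0.37 without control ATRA 2, -0.17 without control ATRA 3, -0.07 without untreated control 3, -0.64 with 2 and -1.15 with 3 libraries left out; and for HOXB8 to -1.92 without knockout ATRA 2, -0.57 without untreated control 3, -0.52 with 2 and -1.07 with 3 libraries left out. The opposite ends of these leave-one-out ranges were -2.52 for HOXB1, -1.31 for HOXB9 and -1.49 for HOXB13 without knockout ATRA 2, and 1.59 for HOXB7 and 3.04 for HOXB8 without control ATRA 1. The cause was not tested. The replicate block, in which the numbers do not pair the libraries, gave 3 called HOXB genes untreated, beside 30.2% of all genes. There HOXB5 was lost (adjusted p = 0.0574), and 0 were called in every other comparison. Over all genes, the untreated comparison had 6676 calls, and 1072 (near-identical libraries summed) to 8453 over the other settings; with ATRA 1437, and 71 (summed) to 2964 (DESeq2); for ATRA in the control 22, and 0 to 2457; for ATRA in the knockout 6, and 0 to 1336 (compared groups only); for the interaction 0, and 0 to 135. Depth limits HOXB4 to HOXB8 in untreated control cells, where 0 to 18 counts were found per library.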
